A study of Mus musculus with 4 samples.

Results

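The MOS-MEK-ERK-RSK cascade is the mitogen-activated protein kinase (MAPK) pathway of the oocyte, here represented by 8 genes of 23309 gene symbols in the deposited tables. The genes were chosen by name: Mos and Braf, whose kinases activate MEK, Map2k1 and Map2k2 for MEK1 and MEK2, Mapk3 for ERK1, and Rps6ka1, Rps6ka2 and Rps6ka3 for the RSK1, RSK3 and RSK2 kinases. All 8 symbols were found, each on 1 row per library. Of the 8, 7 had a mean of at least 1 FPKM over the 4 libraries and entered the counts below. Rps6ka2 was listed at 0 in every library.

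The study sequenced mRNA from mouse oocytes of the ICR strain, wild type or Erk-/-, at the germinal vesicle (GV) stage before meiosis resumes and at metaphase of the second meiotic division (MII), when the egg is mature. Each of the 4 combinations is 1 library of 60 cells from females 21 to 23 days old. The submitters' text names the hormones PMSG and hCG, and which of them preceded collection at each stage is not settled here. The labels give the genotype as Erk-/- without naming the allele, the exons removed or any Cre driver, and the shared treatment text names Btg4-/- females instead. There is no replicate, so each difference below is one between single libraries and carries no test.

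In maturing oocytes this cascade is switched on at a translational step. MOS is made from stored mRNA once meiosis resumes, it phosphorylates MEK, MEK phosphorylates ERK, and ERK activates RSK. The pathway is known for holding the mature egg at metaphase II and for its part in building and placing the meiotic spindle. BRAF is a MEK activator downstream of RAS in somatic cells.

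The 3' ends of the member mRNAs are shown first, because the poly(A) tail behind the AATAAA signal is what maturing oocytes lengthen or shorten to switch stored messages on or off. Sequences come from the GENCODE M21 transcripts on GRCm38, 1 coding transcript per gene. Each line gives 30 bases of the transcript strand, 5' to 3', with the AATAAA signal nearest the end in capitals.
Mos (chr4:3870661-3870690, minus strand): atatttttaggaAATAAAgttaccacgaac
Map2k1 (chr9:64185773-64185802, minus strand): ctatcaagttaaAATAAAagggacaagaga
Rps6ka1 (chr4:133847295-133847324, minus strand): caaggcctttctAATAAActtacaatccag
Rps6ka3 (chrX:159368212-159368241, plus strand): ggaaatttatatAATAAAgtttcaagtaaa
In these 4 transcripts the signal begins 21 to 23 bases before the annotated end.

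The last 100 bases of each 3' UTR were searched on the transcript strand for AATAAA and ATTAAA. Among 8612 tested genes with a 3' UTR of that length, 82.1% held one of these signals. Map2k2 and Mapk3 held neither in the window of the transcript used. The letters TTTTAT and TTTTAAT, forms of the cytoplasmic polyadenylation element, were found in 20.7% of the genes and, among the members, in Rps6ka2 alone. The Mos 3' UTR, 126 bases in this annotation, held neither form over its whole length. Over whole 3' UTRs, Braf had 9 matches, Rps6ka3 had 7, and Map2k1 and Rps6ka2 had 2 each. Map2k2, Mapk3 and Rps6ka1 had 0. Other forms of the element were not searched. A match or its absence describes these letters in the stretch searched and nothing about binding.

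The authors deposited FPKM, fragments scaled by transcript length and by the number mapped, with a lower and an upper bound for each gene. FPKM is relative to a library's total, so a change in RNA per oocyte and a change in the remaining transcripts cannot be told apart. A higher value at MII is thus a higher share of the library, and is not shown to be added mRNA. Whether poly(A) tail length entered any level was not tested. FPKM summed to between 401160 and 453226 per library, and 3570 to 5682 genes reached 10 FPKM. The sequencing depth is unknown, and the median width of the bounds on each side was 7.65% to 9.45% of the value in genes of at least 10 FPKM. All 10 oocyte markers had at least 1 FPKM in every library, with a summed level of 7954 to 19086 FPKM. The 11 markers of granulosa and cumulus cells summed to 12.4 to 22.6 FPKM, with 7 to 9 of them at 0 per library and Amh, Fshr and Foxl2 at 0 in all 4. Most of the sum came from 1 gene per library. It was Cyp19a1, the aromatase gene, at 15.5 and 21.8 FPKM in the wild-type GV and MII libraries and at 10.8 in mature oocytes labelled Erk-/-. In Erk-/- GV, where Cyp19a1 was listed at 0, it was the inhibin gene Inha at 11.3 FPKM. Their part in the differences below was not tested. The 6 markers of other ovarian and blood cells summed to at most 1.57 FPKM.

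**Figure D1:**
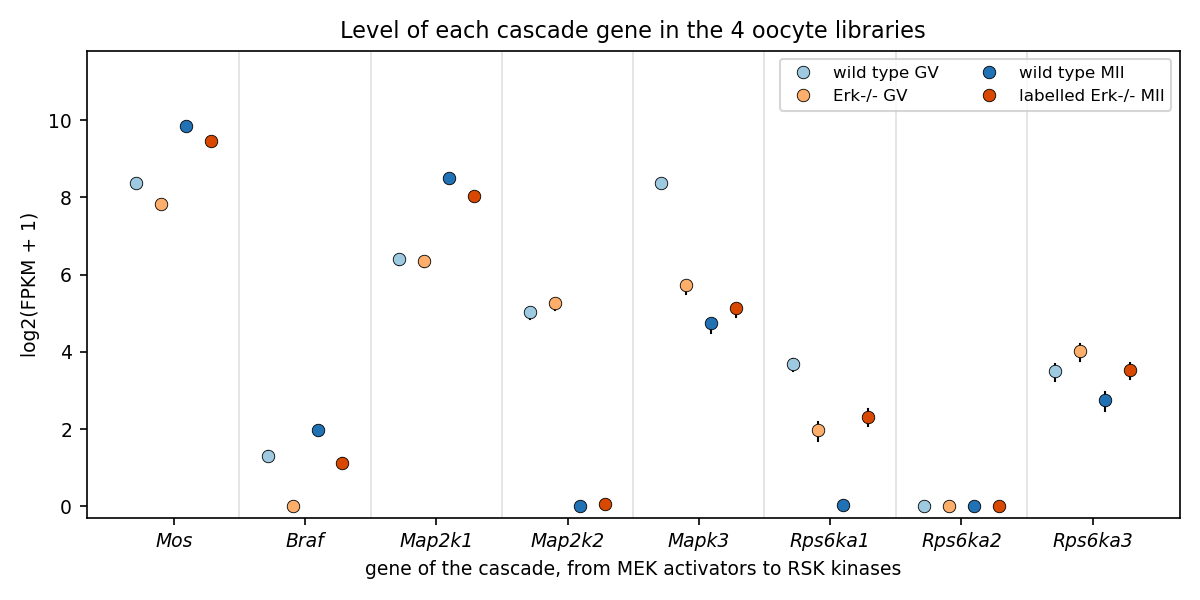
Level of the 8 cascade genes in the 4 libraries, as log2(FPKM + 1), with 1 point per library. Vertical lines are the bounds deposited with the value, drawn only where the value lies within them. Mos and Map2k1 are higher in both MII libraries than in both GV libraries, Map2k2 is at or near 0 in both MII libraries, and Mapk3 and Rps6ka1 stand highest in wild-type GV.

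The targeted tier was examined first. Mapk3 encodes ERK1, the kinase that MEK phosphorylates, and lies on mm9 chromosome 7 from 133903140 to 133909330. At GV it had 333 FPKM in wild type, a value above its own deposited upper bound of 316, and 52.3 in Erk-/- (bounds 44.3 to 54.5), and at MII 25.7 in wild type (21.5 to 27.2), against 34.3 in the library labelled Erk-/- (28.9 to 35.4). The wild-type GV library stood apart from the others, which lay between 25.7 and 52.3 FPKM.

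At GV the Erk-/- library had 15.7% of the wild-type Mapk3 level, a log2 ratio of (FPKM + 1) of -2.65, in the direction of its label. At MII the library labelled Erk-/- had the higher value, a log2 ratio of 0.40, and under median-of-ratios scaling the sign turned (-0.12). Of all tested genes, 6.32% had a lower ratio than Mapk3 at GV and 52.7% at MII, where the all-gene median was 0.31. The Mapk3 level therefore goes with the genotype label at GV and not at MII. A gene-level FPKM does not show which exons the fragments came from. Since Mapk3 does not follow the label at MII, the mature library of that genotype is named below by its label only. No other row of the tables overlaps the Mapk3 locus, and the nearest gene, Gdpd3, 598 bp away, was listed at 0 in all 4 libraries.

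Mapk3 had rank 202 by FPKM among 23309 symbols in wild-type GV and rank 1757 in the Erk-/- GV library. At MII its rank was 2192 in wild type and 2094 in the library labelled Erk-/-. From GV to MII it was 12.9-fold lower in wild type, against 1.53-fold lower under the Erk-/- label. The difference of these log2 ratios, labelled Erk-/- minus wild type, was 3.05. Under median-of-ratios scaling the log2 ratio in wild type was -2.83, against -3.64 as deposited, and the difference was 2.44. The genotype comparison at GV and the wild-type maturation ratio use the same wild-type GV library, so the low ratios of Mapk3 in both rest on that 1 value, which lies outside its own bounds.

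Upstream of ERK, Mos was the most abundant member in both MII libraries. Mos, which encodes the oocyte kinase that starts the cascade, is a single row on chromosome 4 from 3797805 to 3799252. At GV it had 332 FPKM in wild type and 225 in Erk-/-, and at MII 919 in wild type and 704 in the library labelled Erk-/-. Both MII values exceeded both GV values, and within each stage the library labelled Erk-/- was the lower. All 4 deposited Mos values lie above their own upper bounds, so the bounds are not used. Mos stood at 67.8% of wild type at GV and 76.6% at MII. Its rank moved from 203 to 50 in wild type and from 304 to 57 in the libraries labelled Erk-/-.

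Braf was close to the limit of what the tables list. At GV it had 1.48 FPKM in wild type (1.25 to 1.71) and was listed at 0 in Erk-/-. At MII it had 2.93 FPKM in wild type (2.60 to 3.26), against 1.19 in the library labelled Erk-/- (0.983 to 1.39). In each stage the wild-type value was the higher, and at MII the bounds did not overlap. A value of exactly 0 can be a failed estimate, so no fold is given for GV.

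The pair of MEK genes moved in opposite directions between the stages. Map2k1, for MEK1 (chromosome 9, 64033600 to 64101412), had at GV 83.6 FPKM in wild type (74.7 to 84.3) and 81.3 in Erk-/- (72.2 to 81.8). At MII it had 359 FPKM in wild type and 262 in the library labelled Erk-/-, values that lie above their own upper bounds. The GV libraries were nearly equal, with overlapping bounds, and both MII libraries were higher, by 4.30-fold in wild type and by 3.22-fold between those labelled Erk-/-. At MII the library labelled Erk-/- had 72.9% of the wild-type level.

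Map2k2, for MEK2 (chromosome 10, 80568692 to 80587442), had at GV 31.9 FPKM in wild type (27.9 to 33.9) and 37.6 in Erk-/- (32.7 to 40.2), again with overlapping bounds. It was listed at 0 in wild-type MII and had 0.0410 FPKM in the MII library labelled Erk-/-, with a lower bound of 0. Both GV libraries were thus high and both MII libraries at or near 0. The log2 ratio of (FPKM + 1) in the libraries labelled Erk-/- was -5.21, and 0.310% of the tested genes had a lower one. In wild type the same ratio was -5.04, with 4.02% of the tested genes below it.

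Map2k1 therefore made up, at GV, 72.4% of the summed MEK FPKM in wild type and 68.4% in Erk-/-. At MII its share was 100% in wild type and 99.98% in the library labelled Erk-/-. The summed MEK level was 116 and 119 FPKM at GV, and 359 and 262 at MII, wild type first. These shares compare levels per length of transcript within a library, so the scaling between libraries does not enter them. Uchl4 lies inside the Map2k1 locus and was at 0 or, in the MII library labelled Erk-/-, at 0.0911 FPKM. Reads that fit both MEK genes could be split by the authors' counting in ways not given in the sources used here.

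**Figure D2:**
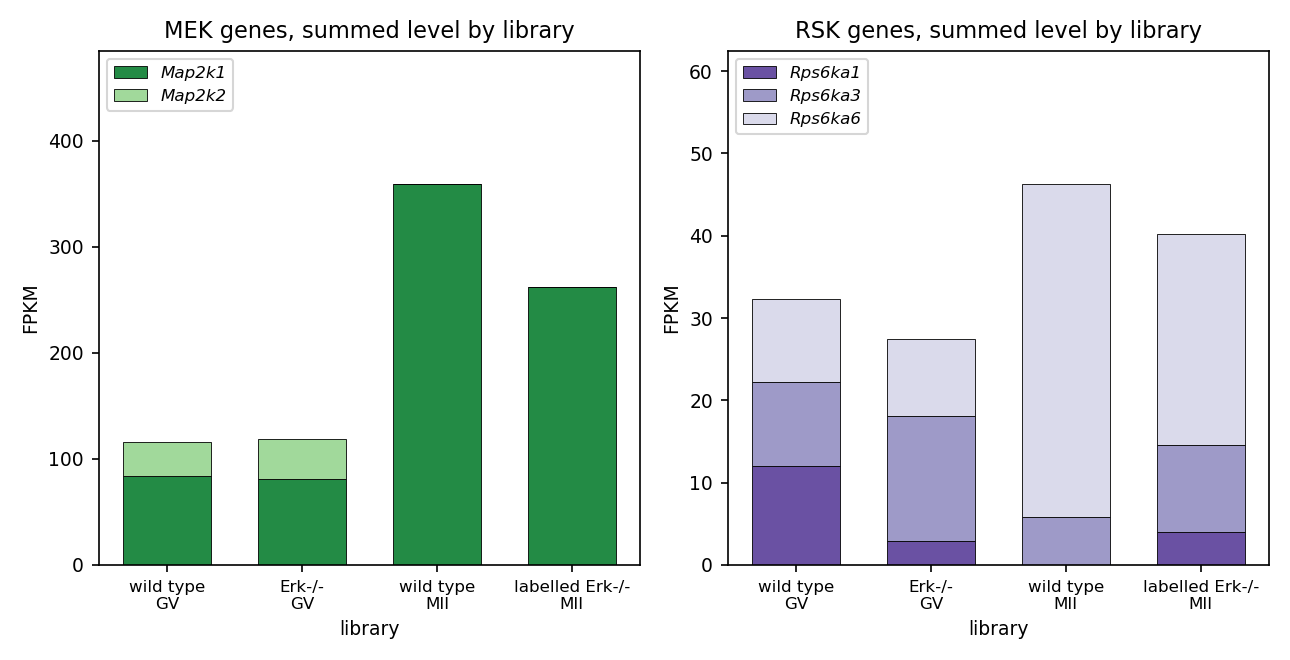
Summed FPKM of the MEK genes (left) and of the RSK genes (right) in each of the 4 libraries, as stacked bars from 0, with Rps6ka6 added to the RSK members. Map2k2 contributes 31.9 and 37.6 FPKM at GV and nothing visible at MII, and Rps6ka6 is the largest RSK segment in both MII libraries.

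Among RSK genes, whose kinases ERK activates, Rps6ka1 was, like Mapk3, highest in wild-type GV. Rps6ka1 (chromosome 4, 133403206 to 133443714) had at GV 12.0 FPKM in wild type (10.4 to 13.2) and 2.91 in Erk-/- (2.23 to 3.56). At MII it had 0.0297 FPKM in wild type (0 to 0.0843), against 3.99 in the library labelled Erk-/- (3.22 to 4.75). The bounds of wild-type GV and of wild-type MII overlapped with no other library, and those of the libraries labelled Erk-/- overlapped with each other. Erk-/- GV was 4.11-fold below wild-type GV. At MII the order was the reverse, with 3.99 against 0.0297 FPKM and a log2 ratio of (FPKM + 1) of 2.28.

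Rps6ka3, for RSK2 (chromosome X, 155694052 to 155801417), varied less. At GV it had 10.3 FPKM in wild type (8.48 to 11.9) and 15.2 in Erk-/- (12.6 to 17.5), and at MII 5.76 in wild type (4.56 to 6.82), against 10.6 in the library labelled Erk-/- (8.76 to 12.1). In both stages the library labelled Erk-/- was the higher, by 1.47-fold at GV and 1.85-fold at MII, and within neither stage did the bounds overlap. None of its ratios reached 2-fold. Under median-of-ratios scaling its log2 ratio at MII was 0.32, against 0.78 as deposited.

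The summed FPKM of the RSK members at GV was 22.3 in wild type and 18.1 in Erk-/-, and at MII it was 5.79 in wild type and 14.6 in the library labelled Erk-/-. Rps6ka3 made up 46.3%, 83.9%, 99.5% and 72.7% of it, in that order. Rps6ka6, which encodes RSK4 and is not among the members, had at GV 10.03 FPKM in wild type and 9.31 in Erk-/-, and at MII 40.5 in wild type and 25.6 in the library labelled Erk-/-. With it included, the RSK sum was 32.3, 27.4, 46.3 and 40.3 FPKM, of which Rps6ka6 held 31.0%, 34.0%, 87.5% and 63.7%.

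The order of levels within a library differed by stage. In wild-type GV, Mapk3 (333 FPKM) and Mos (332) were level, followed by Map2k1, Map2k2, Rps6ka1, Rps6ka3 and Braf, and the bounds of Rps6ka1 and Rps6ka3 overlapped. In Erk-/- GV the order was Mos, Map2k1, Mapk3, Map2k2, Rps6ka3 and Rps6ka1. In both MII libraries it was Mos, Map2k1, Mapk3 and Rps6ka3. The MEK sum was at GV 0.347 times the Mapk3 level in wild type and 2.27 times in Erk-/-, and at MII 14.0 times in wild type and 7.64 times in the library labelled Erk-/-. Mos stayed between 1.90 and 2.88 times the MEK sum in all 4 libraries. The 8 members together took at GV 0.178% of the summed FPKM in wild type and 0.0985% in Erk-/-, and at MII 0.327% in wild type and 0.245% in the library labelled Erk-/-.

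**Figure D3:**
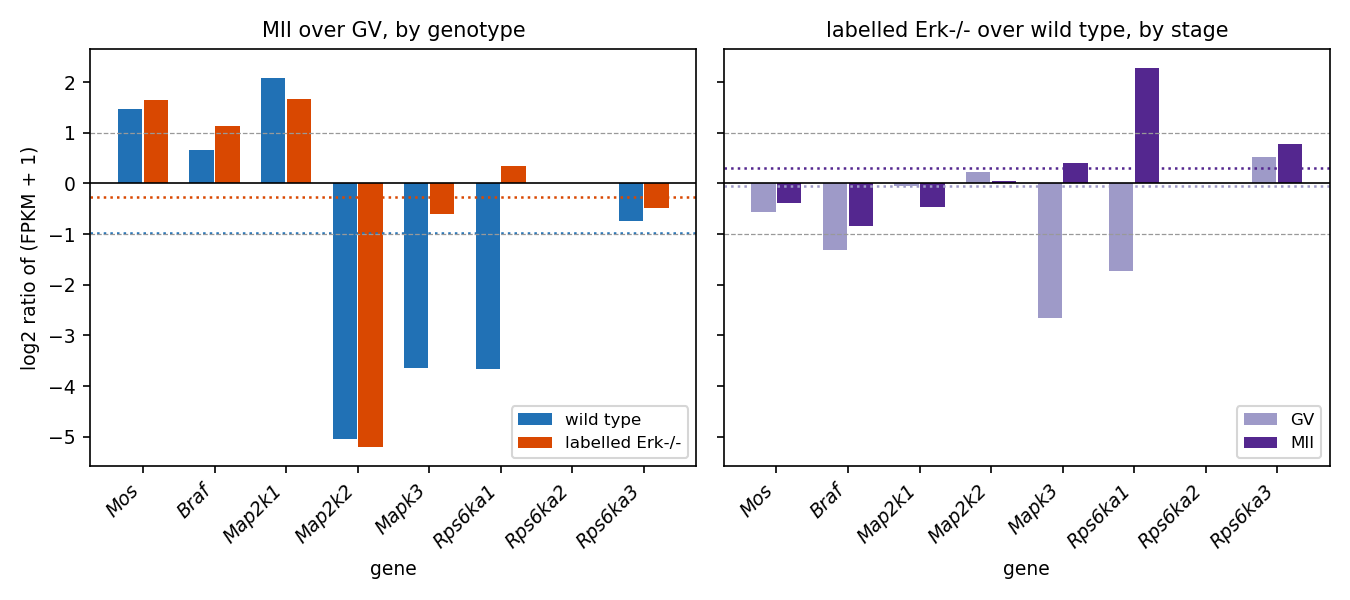
Log2 ratio of (FPKM + 1) for the 8 cascade genes, MII over GV in each genotype (left) and labelled Erk-/- over wild type at each stage (right). Bars are single-library ratios, dashed lines mark 2-fold and dotted lines the median of all tested genes. Mos, Map2k1 and Map2k2 go the same way in both genotypes, while Mapk3 (-3.64 and -0.60) and Rps6ka1 (-3.66 and 0.35) differ between them.

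The members were then counted against all 9990 genes whose mean reached 1 FPKM, by a rule of size, a ratio of (FPKM + 1) of at least 2-fold. From GV to MII in wild type, 5 of 7 members were apart, against 70.1% of all tested genes. Mos and Map2k1 were higher, where 20.6% of all genes were, and Map2k2, Mapk3 and Rps6ka1 lower, where 49.6% were. The median log2 ratio was -0.74 for the members and -0.97 for all tested genes. In the libraries labelled Erk-/- 4 of 7 were apart, against 58.5%, with Mos, Map2k1 and Braf higher (22.9% of all genes) and Map2k2 lower (35.6%). The medians were 0.35 for the members and -0.26 for all genes. Braf counts there through a value listed at 0.

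Between genotypes at GV, 3 of 7 members were at least 2-fold apart, against 41.3% of all tested genes. Mapk3, Rps6ka1 and Braf were lower in Erk-/-, as were 22.9% of all genes. None was higher, where 18.4% of all genes were. The members' median was -0.56 and that of all genes -0.06. At MII 1 of 7 was apart, Rps6ka1, which was higher, against 38.8% of all genes apart, 31.4% higher and 7.43% lower. The medians were 0.06 for the members and 0.31 for all genes, and under scaling they were -0.12 and 0.00. For the difference of maturation ratios, Mapk3 and Rps6ka1 were positive by at least 2-fold, 2 of 7, against 60.1% of all genes apart, 41.2% positive and 18.8% negative. Counted in either direction, these shares of 7 genes lie near or below the background in all 5 comparisons. By direction, the share lower at GV and the shares higher in both maturation comparisons lie above it, on 2 or 3 genes each, and all are descriptions only. The comparisons share libraries, so their counts are not independent of each other.

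Under median-of-ratios scaling the all-gene median shifted by 0.67 in wild-type maturation and 0.18 in the libraries labelled Erk-/-. The shift was -0.31 between genotypes at MII and -0.49 in the difference of maturation ratios. Of all genes apart, 29.3% were higher in wild-type maturation as deposited and 42.3% when scaled. Between genotypes at MII the share was 80.9% and 59.1%, and in the difference of maturation ratios 68.7% and 55.2%. Under that scaling Mos and Map2k1 stayed at least 2-fold higher at MII in both genotypes (scaled log2 2.29 and 2.91 in wild type, 1.84 and 1.87 with the Erk-/- label). Braf passed 2-fold in wild-type maturation when scaled (1.22) and was then more than 2-fold lower in the library labelled Erk-/- at MII (-1.23).

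Other genes of MAPK signalling were taken from 5 lists of 66 genes, chosen with earlier results of these data known. Hras was not found in the tables by that symbol, and 50 genes passed the filter. In wild-type maturation 15 of the 50 were higher and 21 lower (median log2 0.00), where 20.6% of all tested genes were higher and 49.6% lower (median -0.97). Scaling turned that balance, to 21 higher and 16 lower (0.50), beside 2957 higher and 4036 lower of all 9990 genes (-0.30). In the libraries labelled Erk-/- 12 were higher and 15 lower (0.24), beside 22.9% and 35.6% of all genes (-0.26). At GV 8 stood higher and 9 lower with the Erk-/- genotype (0.02), where 18.4% and 22.9% of all genes did. At MII 12 were higher and 4 lower (0.16), where 31.4% and 7.43% of all genes were. Under scaling 8 were higher and 10 lower (-0.25), beside 2462 higher and 1704 lower of all 9990 genes (0.00).

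Among inputs and scaffolds upstream of MEK, 3 of 12 genes were higher and 4 lower in wild-type maturation (median 0.14), beside 20.6% and 49.6% of all tested genes. When scaled the balance turned, with 6 higher and 2 lower (0.88), beside 2957 higher and 4036 lower of all 9990 genes (-0.30). In the libraries labelled Erk-/- 2 were higher and 3 lower (0.00, and 0.20 scaled), beside 22.9% and 35.6%. Grb2, the adaptor that links receptors to RAS activation, had at GV 27.8 FPKM in wild type and 14.4 in Erk-/-, and at MII 0.687 in wild type and 7.80 in the library labelled Erk-/-. Lamtor3, the scaffold MP1 that holds MEK1 and ERK1 together, had 83.1, 99.1, 206 and 222 FPKM in the same order. Its 2 MII values thus exceeded its GV values whatever the genotype. At MII 4 of the 12 were higher in the library labelled Erk-/- and 1 lower (median 0.25, and -0.16 scaled). These counts lie near the shares of all tested genes, 31.4% higher and 7.43% lower (median 0.31, and 0.00 scaled). Pebp1, whose protein restrains signalling into MEK, had 392 FPKM in the MII library labelled Erk-/- against 140 in wild-type MII.

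Brakes on the pathway, mostly phosphatases and Sprouty proteins, had 6 of 15 genes higher and 6 lower in wild-type maturation (median 0.03), where 20.6% of all tested genes were higher and 49.6% lower. When scaled 6 were higher and 4 lower (0.84), beside 2957 higher and 4036 lower of all 9990 genes (-0.30). In the libraries labelled Erk-/- 6 were higher and 5 lower (0.57), beside 22.9% and 35.6% of all genes. Dusp1, a phosphatase of MAP kinases, had at GV 19.1 FPKM in wild type and 36.3 in Erk-/-, and at MII 138 in wild type and 110 in the library labelled Erk-/-. Dusp7, a cytoplasmic ERK phosphatase, had 65.9, 115, 236 and 285 FPKM in that order. Both genes were higher in both MII libraries than in both GV libraries. Ppp2ca, the catalytic subunit of protein phosphatase 2A, went the other way with 48.9, 50.4, 5.12 and 6.10 FPKM. Spry1 stood highest in Erk-/- GV (25.5 FPKM), above wild-type GV (4.39) and both MII libraries (0.989 in wild type and 3.42). At GV 3 of the 15 brakes stood higher in Erk-/- than in wild type and 3 lower, near the 18.4% and 22.9% of all tested genes. At MII 2 stood higher and none lower, where 31.4% and 7.43% of all genes did. When scaled 1 stood higher and 2 lower, beside 2462 higher and 1704 lower of all 9990 genes.

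**Figure D4:**
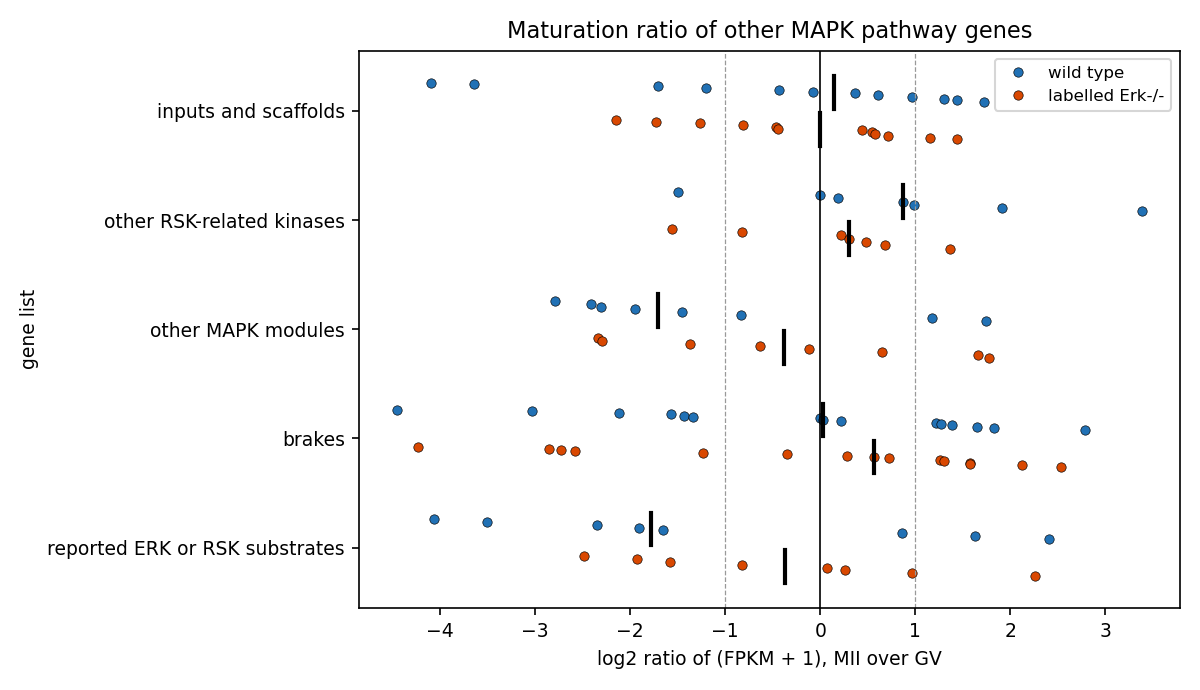
Log2 ratio of (FPKM + 1), MII over GV, for the 50 tested genes of the 5 MAPK pathway lists, with 1 point per gene and genotype and a black bar at each list's median. Dashed lines mark 2-fold. Genes lie on both sides of 0 in every list, and the substrates' median is -1.78 in wild type, against -0.37 under the Erk-/- label, where the medians of all tested genes are -0.97 and -0.26.

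Kinases related to RSK were higher in 2 of 7 and lower in 1 in wild-type maturation (median 0.87), and when scaled higher in 4 and lower in none (1.68). Of all tested genes, 20.6% were higher and 49.6% lower as deposited (-0.97). When scaled, 2957 of the 9990 were higher and 4036 lower (-0.30). At MII 1 was higher and 3 lower in the library labelled Erk-/- (median -0.64, and -1.16 scaled), beside 31.4% and 7.43% of all genes. Mapkapk5, a kinase downstream of p38 and ERK3, had at GV 10.7 FPKM in wild type and 2.35 in Erk-/-, and at MII 22.3 in wild type and 4.38 in the library labelled Erk-/-. Wild type was the higher in both stages. Mknk1, the kinase MNK1 that ERK activates to phosphorylate the cap-binding protein eIF4E, had 41.1, 27.7, 76.0 and 34.5 FPKM in the same order. It too was higher in wild type at both stages, with a log2 ratio at MII of -1.12 for labelled Erk-/- over wild type.

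Kinases of other MAPK modules were higher in 2 of 8 and lower in 5 in wild-type maturation (median -1.71, and -1.23 scaled). Of all tested genes 20.6% were higher and 49.6% lower, with a median of -0.97, and -0.30 scaled. In the libraries labelled Erk-/- 2 were higher and 3 lower (-0.38), beside 22.9% and 35.6% with a median of -0.26. Mapk6, for the atypical kinase ERK3, had 37.2 and 26.9 FPKM at GV and 127 and 94.3 at MII, wild type first. Map2k4, which activates the JNK kinases, had 36.3 and 42.3 FPKM at GV, and 4.38 in wild-type MII against 26.9 in the MII library labelled Erk-/-. Mapk6 thus followed the stage, and Map2k4 was low in wild-type MII alone among the 4 libraries.

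Genes reported as ERK or RSK substrates were higher in 2 of 8 and lower in 5 in wild-type maturation (median -1.78, and -1.23 scaled). Of all tested genes 20.6% were higher and 49.6% lower (-0.97, and -0.30 scaled). In the libraries labelled Erk-/- 1 was higher and 3 lower (-0.37), and 22.9% and 35.6% of all genes were (-0.26). The all-gene median was thus below 0 in both genotypes and lower in wild type, as the substrates' was. Fbxo43, for EMI2, the inhibitor of the anaphase-promoting complex that RSK phosphorylates in frog eggs, had at GV 27.2 FPKM in wild type and 19.6 in Erk-/-, and at MII 149 in wild type and 97.2 in the library labelled Erk-/-. Both MII values exceeded both GV values, as for Mos and Map2k1. Bub1, a spindle checkpoint kinase, had 35.6, 17.1, 2.22 and 5.03 FPKM in that order. Eif4b, a translation initiation factor that RSK phosphorylates, had 78.0, 138, 14.5 and 35.8 FPKM. At MII 3 of the 8 were higher in the library labelled Erk-/- and none lower (median 0.42), where 31.4% and 7.43% of all genes were (0.31). When scaled 2 were higher and 1 lower (0.04), beside 2462 higher and 1704 lower of all 9990 genes (0.00).

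Genes whose pattern over the 4 libraries lay nearest that of Mos and Mapk3 were sought among 2483 genes with at least 10 FPKM in every library. Likeness was the Euclidean distance between log2(FPKM + 1) values centred on each gene's mean. The nearest to Mos included Fbxo8 (distance 0.08) and Ppp1r3d (0.12). Fbxo8 had at GV 25.3 FPKM in wild type and 16.99 in Erk-/-, and at MII 68.5 in wild type and 56.2 in the library labelled Erk-/-. For Mapk3 the nearest were Aspscr1 (0.87), Elp5 (0.93) and U2af1l4 (1.04). Aspscr1 had 129, 29.4, 17.9 and 10.7 FPKM in the same order. Mapk3 had no neighbour as close as Fbxo8 and Ppp1r3d were to Mos.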

How the data were processed

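Messenger RNA of 4 oocyte libraries was sequenced as read pairs on an Illumina instrument, per the labels' protocols. The authors deposited FPKM with lower and upper bounds per gene, per the file headers. CASAVA 1.8, TopHat and build mm9 are named in the submitters' processing notes. The program behind FPKM, its annotation and the level of the bounds are not stated in those notes or headers, nor is the treatment of multiply mapped reads. Groups were taken from the sample titles. The 260 symbols on several rows were summed, and 1 was added to each locus start, which the tables count from 0. Bounds are quoted only where they hold their own value.

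Ratios are differences of log2(FPKM + 1), a scale that shrinks changes at low levels. Tested were the 9990 genes whose mean reached 1 FPKM. A ratio of at least 2-fold was counted, with no p-value, since each group is 1 library. Of the 9990 genes, 3023 were listed at 0 in a library. Named genes are all members, up to 4 genes of each pathway list with the largest absolute ratio in a comparison among those reaching 10 FPKM, and the 3 nearest in pattern to Mos and to Mapk3; those bearing on the cascade are described. The members and lists were chosen with earlier results of these data known. Genes outside these lists, and a few within them, are not reported here. The alternatives were a pseudocount of 0.1, median-of-ratios scaling, other filters, and the highest of several rows per symbol. The counting code was run on simulated data with planted 4-fold changes, little noise and only genes of at least 10 FPKM. That run checks the code and says nothing of how reliable the counts are in these libraries. Python 3.11.15, pandas 2.3.3 and numpy 2.4.6 were used.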

Additional observations from a re-analysis of the deposited data

Results flagged for a closer look

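The Rps6ka1 ratio between the stages was negative in wild type and positive under the Erk-/- label, with 1 library per group. Its log2 ratio of (FPKM + 1), MII over GV, was -3.66 in wild type (12.0 to 0.0297 FPKM) and 0.35 in the libraries labelled Erk-/- (2.91 to 3.99 FPKM). The second ratio is within 2-fold and the bounds of its 2 values overlap, so no rise is shown there. The difference between the genotypes was not tested, since no group has a replicate.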

How the results depend on the processing

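Without replicates or recoverable counts, the precision of every value rests on the deposited bounds, which do not cover the spread between animals. In each library 709 to 1018 of 23813 rows lay above their own upper bound. Overlap of bounds, or its lack, is therefore a description and not a test. With a mean of at least 10 FPKM required, which leaves 5 members, 1 was apart between genotypes at GV, 0 at MII and 1 in the difference of maturation ratios (3, 1 and 2 as reported), because Braf and Rps6ka1 no longer entered. Of all genes under that filter, 27.1%, 38.4% and 53.1% were apart in that order, against 41.3%, 38.8% and 60.1% as reported. Between genotypes at MII, 2 were apart with a pseudocount of 0.1 and 2 under median-of-ratios scaling, Braf being added in both. Without genes listed at 0 in any library, an alternative chosen after seeing the data, 2 members were apart in maturation of the libraries labelled Erk-/- (4 as reported). All genes apart were then 52.7%, against 58.5% as reported. The other counts of members stayed within 1.5 times. None of the members' 2-fold ratios changed sign with a pseudocount of 0.1 or under scaling. Each member is on 1 row and filters do not alter a ratio, so the other alternatives could not change one. Of the 40 member ratios, 13 moved past a margin set from the bounds with the pseudocount of 0.1, and 22 under scaling. Below 2-fold, scaling turned the sign of Mapk3 at MII (-0.12), of Map2k1 at GV (0.05) and of the difference of maturation ratios for Mos (-0.45), Braf (-0.15) and Rps6ka3 (-0.27), and scaling took that difference past 2-fold for Map2k1 (-1.04). With a pseudocount of 0.1 that difference turned positive for Map2k2 (0.26) and reached 2.75 for Braf. No paired analysis was possible because the labels give no replicate numbers and each group is 1 library.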

Other observations

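Several genes of the pathway lists were listed at or near 0 in only 1 of the GV libraries. Dusp4, an ERK-induced phosphatase, was listed at 0 in wild-type GV and had 17.7 FPKM in Erk-/- GV, and Dusp2 had 20.9 FPKM in wild-type GV and was listed at 0 in Erk-/- GV. Rps6ka5, for the kinase MSK1, had 9.77 FPKM in Erk-/- GV against 0.0214 in wild type. Araf and Sos2, singled out after their values were seen, were listed at 0 in wild-type GV and had 6.82 and 5.16 FPKM in Erk-/- GV. An exact 0 in such a table can be a failed estimate, so no fold is given.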
